A study of Mus musculus with 16 samples.

Results

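The genes described here are the nuclear-encoded subunits of the oxidative phosphorylation machinery, complexes I to V of the mitochondrial inner membrane, together with cytochrome c. They were chosen by name: protein-coding symbols beginning with Ndufa, Ndufb, Ndufc, Ndufs, Ndufv, Uqcr, Atp5 or Cox4 to Cox8, plus Sdha, Sdhb, Sdhc, Sdhd, Cyc1, Cycs and Usmg5, without the Ndufaf assembly factors and pseudogenes. The rule found 89 gene IDs with 88 symbols among the 55359 IDs counted, of which 36 belong to complex I, 4 to complex II, 9 to complex III, 20 to complex IV and 19 to complex V, with Cycs apart. A filter on low counts left 84 of them for testing. Some of these genes have near-identical copies elsewhere in the genome, and how reads that map to several places were counted is not given in the sources used here, so their levels carry that uncertainty.

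RNA was taken from the cortex of mouse fetuses at gestational day 16 and sequenced in 16 libraries, 2 for each combination of fetal sex and parental ethanol treatment. The 4 treatments were Dual EtOH (both parents exposed), Paternal EtOH (father exposed), Maternal EtOH (mother exposed) and Control, each with 4 libraries. Neither strain, dose nor the number of animals behind a library is given in the labels. Nor do they state whether replicates are separate fetuses or litters. A p-value here therefore reflects how far the libraries of a group lie apart, and that spread may be technical. The design asks how each exposure changed cortical RNA, whether both sexes responded alike, and whether the effects of the 2 single exposures add up to that of dual exposure.

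Oxidative phosphorylation passes electrons from NADH through complex I, or from succinate through complex II, to ubiquinone, then to complex III, cytochrome c and complex IV, where oxygen is reduced. Complexes I, III and IV pump protons across the inner membrane, and complex V, the ATP synthase, lets them flow back to make ATP. A few core subunits of all complexes but the second are encoded by mitochondrial DNA and the rest by nuclear genes, and demand for this pathway is known to grow as neurons differentiate.

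Library totals ran from 26134287 to 35218456 counts in females and from 15336566 to 19966696 in males, so sex and depth go together. The female dual libraries stood apart in composition. Genes of the annotation classes TEC (unproven gene models) and sense-intronic held 0.872% and 0.860% of their counts. The same classes held 0.325% to 0.391% of the counts of any other female library and 0.280% to 0.534% in males. Replicates differed by more than counting noise in every group. Relative to that noise the difference was largest in female controls, by a measure that grows with depth. Gene IDs without a symbol took up to 17.8% of the counts of a male library (male dual replicate 2) and at most 2.43% of a female one. Levels below are CPM, counts brought to a common library total and scaled by TMM, edgeR's correction for library composition. The members together took 0.417% to 0.565% of a library's counts.

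In control cortex the tested subunit genes spanned a wide range of levels, with a median of 26.7 CPM per kilobase of exon and extremes of 0.810 and 151. On this length-corrected scale the median level was 20.8 for complex I, 30.7 for complex II, 35.0 for complex III, 39.8 for complex IV and 30.7 for complex V. By the union of exons, Atp5a1 and Atp5b, the alpha and beta subunits that form the catalytic head of ATP synthase, led complex V with 151 ± 15.8 and 144 ± 15.6 CPM per kilobase (SD, n = 4 control libraries), a gap within their spread. Cox6b1 (138) and Cox6a1 (119), nuclear subunits of cytochrome c oxidase, led complex IV. Uqcr11 (54.5) and Uqcrh (53.0), small subunits of the cytochrome bc1 complex, led complex III. In complex I the accessory subunits Ndufc2 (66.9 ± 9.58) and Ndufa8 (49.6 ± 4.89) were highest and the accessory subunit Ndufb2 (3.10) lowest. Complex II ran from 33.7 for Sdha, the flavoprotein that oxidises succinate, through 32.4 for the membrane anchor Sdhd and 28.9 for the iron-sulfur subunit Sdhb, to 18.7 for the anchor Sdhc. The electron carrier Cycs stood at 12.6 and Cyc1, the cytochrome c1 of complex III, at 28.5. The order of levels depends on the length used. By the longest coding transcript Atp5b (318 ± 34.5) stood above Atp5a1 (177 ± 18.5) beyond their spread. On that length Cox4i1 (178) led complex IV ahead of Cox6b1 (158) and Cox6a1 (146), Uqcrh (120) led complex III and Sdhb (56.7) complex II. Ndufc2 (73.8) remained highest in complex I, but Ndufa7 (72.6), an accessory subunit at 21.0 by the union of exons, came next and Ndufa8 (49.6) was at rank 7. Atp5l, the g subunit of ATP synthase, stood at 3.26 by the union of its exons and at 38.7 by its longest coding transcript. The lowest tested member of complex V was Atp5s (2.57), known as coupling factor B, which matches the set by name only.

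**Figure D1:**
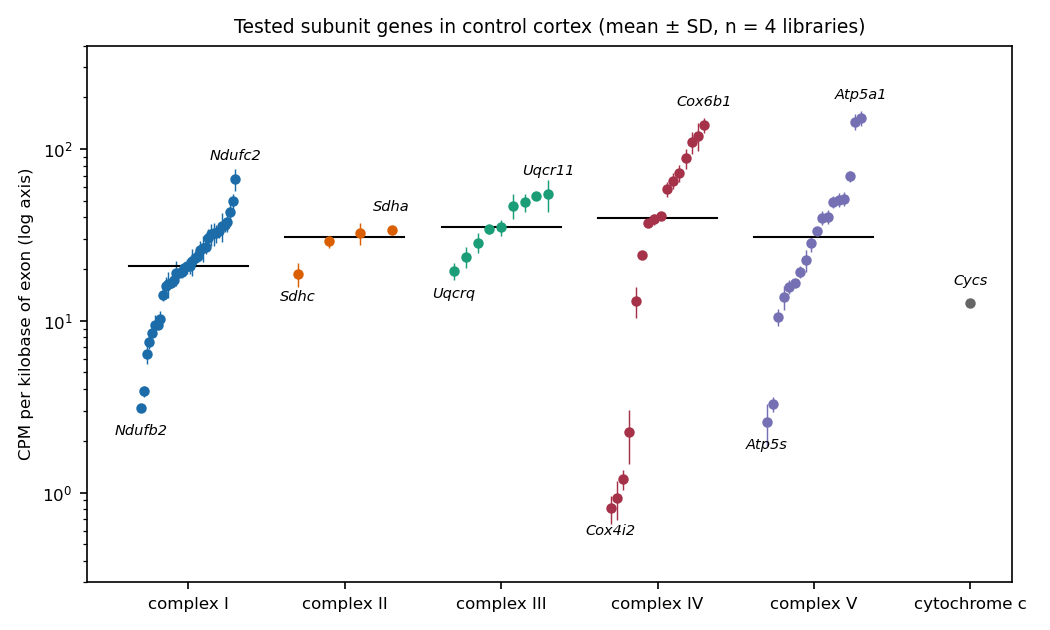
Level of each tested subunit gene in control cortex, in CPM per kilobase of exon on a log axis, by complex; points are means of 4 control libraries and bars their SD, and lines mark the median of each complex. The median over all tested members is 26.7, while a few tissue-restricted isoforms of complex IV lie near 1.

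Tissue-restricted isoforms were scarce next to their widely expressed counterparts. Cox4i1 stood at 88.0 CPM per kilobase in controls, against 0.810 for Cox4i2, the isoform known from lung. Cox6b1 stood at 138 against 0.933 for the testis isoform Cox6b2, and Cox7a2 (72.5) and Cox7a2l (58.3) far above the muscle isoform Cox7a1 (1.20). Cox8a stood at 109 and Cox7b at 40.5. Ndufa4, once assigned to complex I and now to complex IV, stood at 36.9 against 2.24 for its paralog Ndufa4l2. The 3 genes that encode the same ring-forming c subunit of ATP synthase were all expressed, with Atp5g3 at 51.4, Atp5g2 at 22.6 and Atp5g1 at 10.5. The 5 IDs that did not pass the filter were Cox6a2 and Cox8b, known from muscle, Cox7b2 and Cox8c, known from testis, and a second ID of Atp5o without counts. The highest value of Cox7b2 in any library was 0.384 CPM, that of Cox6a2 0.234 CPM and that of Cox8b 0.195 CPM, and Cox8c had no count. The members are compact genes, with a median of 4 exons and a span of 7245 bp over the 84 tested, beside 9 exons and 25012 bp over the 15009 protein-coding genes tested.

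Summed over all members, dual libraries held 4690 ± 234 CPM, paternal libraries 5282 ± 237, maternal libraries 5138 ± 148 and control libraries 5098 ± 435 (SD, n = 4 each). The sexes differed in how they contributed. The sums were 4547 and 4471 CPM in female dual libraries, 5236 and 5112 in female paternal, 5002 and 5107 in female maternal, and 5507 and 5398 in female control libraries. They were 4749 and 4994 CPM in male dual libraries, 5628 and 5151 in male paternal, 5349 and 5095 in male maternal, and 4918 and 4571 in male control libraries. Female dual libraries were thus the lowest and female controls the highest of their sex, while among males the controls overlapped the dual libraries and lay below the single exposures. In bulk tissue, fewer cells of a type and less RNA per cell cannot be told apart.

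Between dual exposure and control, averaged over both sexes, 3 members fell by edgeR's quasi-likelihood test, all of complex V, where 3.36% of all genes tested passed, 0.641% lower and 2.72% higher. Of protein-coding genes 0.906% passed lower and 0.626% higher. Of the 84 members, 68 had a negative log2 fold change. The median was -0.11, beside 0.00 over all genes tested and -0.04 over protein-coding genes. Atp5d, a central-stalk subunit, fell by 0.27 ± 0.06 on the log2 scale (SE, Benjamini-Hochberg adjusted p = 0.0179). Atp5g2 fell by 0.37 ± 0.08 (adjusted p = 0.0183) and Atp5b by 0.20 ± 0.05 (adjusted p = 0.0326). Of the members with positive values, the smallest p were those of Atp5l (0.31 ± 0.08, adjusted p = 0.0553), Usmg5 (0.19 ± 0.06, adjusted p = 0.0849) and the complex I accessory subunit Ndufb4 (0.19 ± 0.09, adjusted p = 0.253), none of which passed. The calls depended on single libraries: 0 members passed without female dual replicate 2, without male dual replicate 1 or without male control replicate 1. There were 8 without male control replicate 2 or female control replicate 1, and 5 without the other female control. No member passed when protein-coding genes alone were fitted (20 at an unadjusted p of 0.05, against 3 passing by edgeR and 5 by DESeq2 on all genes). Nor did any in an edgeR fit of dual and control libraries alone (23 at an unadjusted p of 0.05). With the TEC and sense-intronic share as a covariate 0 passed as well (4 at an unadjusted p of 0.05) and the median was 0.10. Atp5b turned to 0.01 ± 0.11 (SE), in a fit that can hardly tell the share apart from female dual exposure.

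In female fetuses subunits of all 5 complexes were lower with dual exposure. Of 84 members 27 fell and 2 rose (edgeR's quasi-likelihood test, adjusted p under 0.05), where 15.0% of all genes tested passed, 5.64% lower and 9.34% higher. Among protein-coding genes 8.02% fell and 3.10% rose. The members' median log2 fold change was -0.24, beside 0.02 over all genes and -0.08 over protein-coding genes, and 74 of 84 were negative. Both female dual libraries lay below both female controls for 64 members (76.2%), as they did for 23.1% of all genes tested. They lay below the other 6 female libraries for 43 members (51.2%), against 13.8% of all genes, and below all 14 other libraries of either sex for 15 members (17.9%), against 4.14% of all genes. Among protein-coding genes these shares were 30.3%, 18.7% and 5.72%, in the same order. Of those 43 members, 12 belong to complex I, 4 to complex II, 6 to complex III, 10 to complex IV and 11 to complex V. The 2 female dual libraries also held the highest TEC and sense-intronic shares of all 16 (0.872% and 0.860%). With that share as a covariate in the edgeR fit 0 of 84 members passed (3 at an unadjusted p of 0.05, not run in DESeq2) and their median was 0.19. That fit has a mean for each group, so its slope on the share comes from replicates of a group that differ in it. Male dual libraries held 0.511% and 0.365%, while the 2 female dual libraries barely differ in this share. No other library held over 0.534%, so for female dual exposure the slope is carried beyond the shares of all other libraries. That fit can therefore hardly tell the share apart from female dual exposure. Standard errors grew under it, to 0.24 for Sdha and 0.28 for Cox4i1. With protein-coding genes alone 11 members passed, at a median of -0.16, and with the compared groups alone 4, at a median of -0.27. Without female dual replicate 1 there were 18 calls and without female dual replicate 2 there were 5.

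Complex V carried the lowest p-values, in its catalytic head, stalk and ring. Atp5b was at 490.1 and 482 CPM in female dual libraries, 615 and 605 in female paternal, 605 and 621 in female maternal, and 679 and 650.1 in female control libraries. In males it was at 564 and 587 CPM in dual, 684 and 608 in paternal, 636 and 610.4 in maternal, and 572 and 537 in control libraries. Both female dual libraries were the lowest of all 16, with no overlap with any other group, while male dual and control libraries overlapped. Atp5b fell by 0.45 ± 0.07 in females on the log2 scale (SE, adjusted p = 0.00049). Atp5d was at 61.3 and 55.5 CPM in female dual libraries, against 81.4 and 82.8 in female control libraries, and at 66.6 and 71.2 in male dual libraries, against 74.1 and 67.7 in male control libraries. Its female dual libraries again lay below every other library (-0.49 ± 0.08, adjusted p = 0.00088). Atp5g2 had the lowest log2 fold change of the members that passed, -0.63 ± 0.11 (adjusted p = 0.0015), with 29.1 and 25.6 CPM in female dual libraries, against 45.2 and 39.3 in female control libraries. Male dual libraries held 29.4 and 33.1 CPM of Atp5g2, against 34.5 and 32.7 in male control libraries, and overlapped.

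The alpha subunit Atp5a1 (-0.38 ± 0.08) and the rotor subunit Atp5c1 (-0.27 ± 0.08) also fell in female dual cortex. So did the peripheral-stalk subunits Atp5h (-0.25 ± 0.08) and Atp5o (-0.32 ± 0.10), the c-subunit gene Atp5g1 (-0.30 ± 0.09) and the membrane subunit Atp5j2 (-0.26 ± 0.08), with adjusted p from 0.00326 to 0.0442 over these 6. The third c-subunit gene, Atp5g3, had -0.22 ± 0.09 and did not pass (adjusted p = 0.0943). The median over 18 tested complex V genes was -0.27. The only members of any complex that rose were 2 small membrane subunits of ATP synthase. Atp5l rose by 0.38 ± 0.12 (adjusted p = 0.0368), with 28.3 and 25.0 CPM in female dual libraries, 22.6 and 22.8 in female paternal, 19.0 and 18.9 in female maternal, and 21.0 and 19.9 in female control libraries. Usmg5 rose by 0.28 ± 0.08 (adjusted p = 0.0302), with 46.9 and 51.7 CPM in female dual libraries, 50.7 and 50.5 in female paternal, 39.8 and 39.2 in female maternal, and 40.0 and 41.3 in female control libraries. For Atp5l the female dual libraries lay above all other female libraries, whereas for Usmg5 they overlapped the paternal ones.

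**Figure D2:**
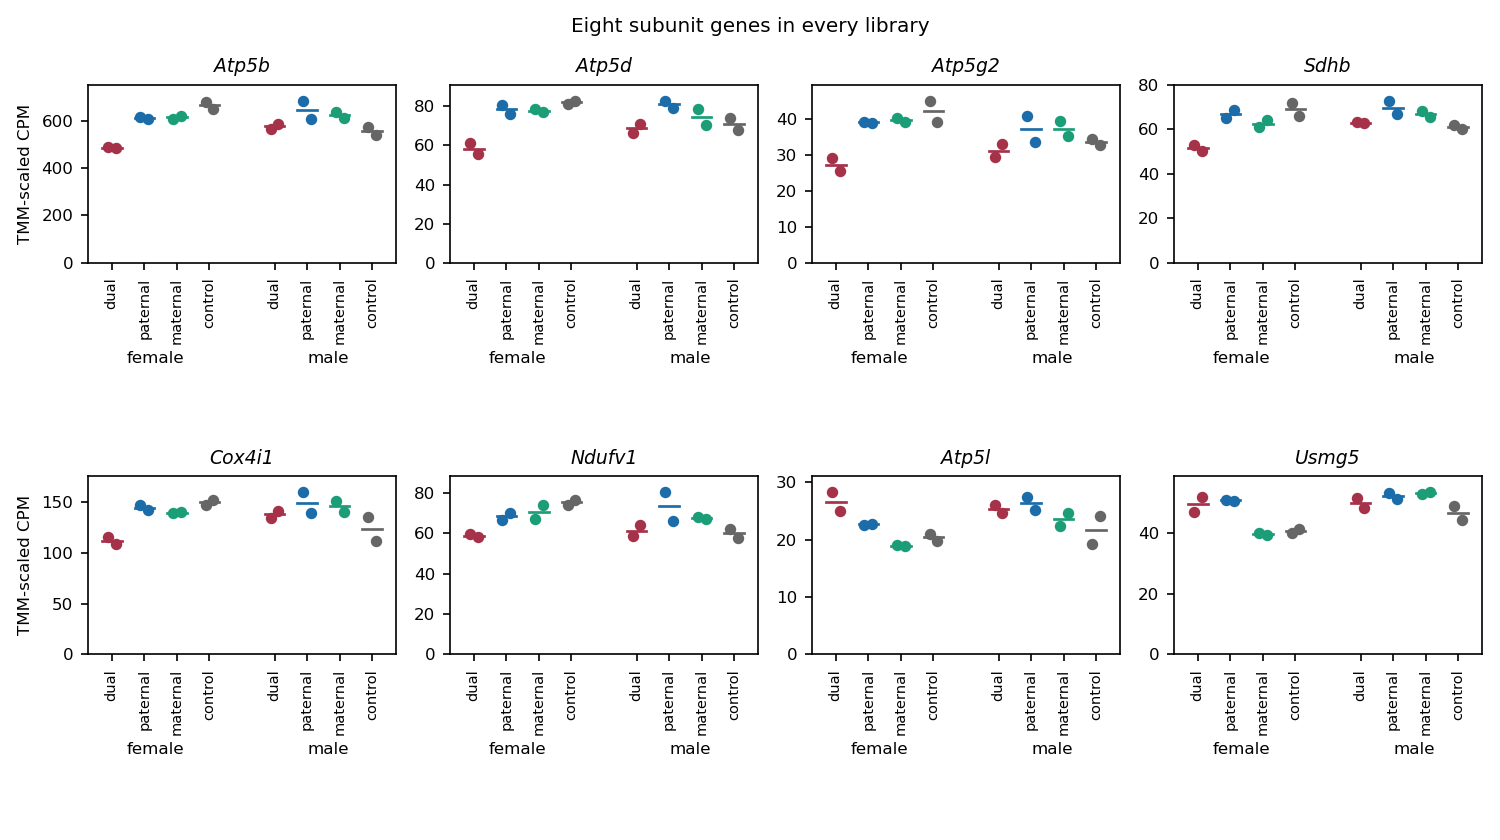
TMM-scaled CPM (linear axis from 0) of 8 subunit genes in each of the 16 libraries, females left and males right, with the exposures in the order dual, paternal, maternal, control; each point is a library and lines are the mean of 2. For Atp5b and Atp5d the 2 female dual libraries lie below all others, while male dual libraries overlap male controls.

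In complex II, 3 of 4 members fell. Sdhb was at 52.8 and 50.4 CPM in female dual libraries, against 71.9 and 65.7 in female control libraries (-0.41 ± 0.08, adjusted p = 0.00225). Sdha was at 120.5 and 126 CPM in female dual libraries, against 148 and 144 in female control libraries (-0.24 ± 0.07, adjusted p = 0.0316). Sdhd was at 34.0 and 33.2 CPM in female dual libraries, against 46.2 and 41.5 in female control libraries (-0.38 ± 0.11, adjusted p = 0.0286). In all 3 the female dual libraries lay below both controls. Sdhc had 57.5 and 55.2 CPM in female dual libraries, against 69.7 and 65.7 in female control libraries, and did not pass (-0.27 ± 0.09, adjusted p = 0.0568). The female dual libraries were the lowest 2 of the 8 female libraries for all 4 genes.

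In complex III, 3 of 9 members fell, each of them part of the electron path or core. The cytochrome c1 gene Cyc1 fell by 0.43 ± 0.09 (adjusted p = 0.0051), with 51.6 and 49.7 CPM in female dual libraries, against 67.8 and 68.7 in female control libraries. Uqcrfs1, the Rieske iron-sulfur protein, fell by 0.39 ± 0.09 (adjusted p = 0.00929), with 55.1 and 53.1 CPM in female dual libraries, against 72.7 and 69.4 in female control libraries. The core protein Uqcrc1 fell by 0.37 ± 0.08 (adjusted p = 0.00531), with 85.5 and 81.3 CPM in female dual libraries, against 108 and 108 in female control libraries. Male dual and control libraries overlapped for all 3. The other core protein, Uqcrc2, did not pass (-0.17 ± 0.08, adjusted p = 0.166). Cycs, the mobile carrier between complexes III and IV, had 43.0 and 37.3 CPM in female dual libraries, against 42.2 and 40.5 in female control libraries, and did not pass (-0.04 ± 0.09, adjusted p = 0.793).

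In complex IV, 6 of 16 tested members fell. Cox4i1 was at 115 and 109 CPM in female dual libraries, 147 and 142 in female paternal, 139 and 139.9 in female maternal, and 147 and 152 in female control libraries, and fell by 0.42 ± 0.09 (adjusted p = 0.00477). The female dual libraries were the lowest of their sex without overlap. Cox7a2l, which is known to join complexes III and IV into supercomplexes, was at 74.3 and 70.3 CPM in female dual libraries, against 95.8 and 90.7 in female control libraries, and fell by 0.37 ± 0.09 (adjusted p = 0.0125). The other 4 that fell were Cox7a2 (-0.37), Cox6a1 (-0.39), Cox6b1 (-0.31) and Cox8a (-0.41), with adjusted p from 0.00916 to 0.0417. None of the scarce isoforms Cox4i2, Cox6b2, Cox7a1 and Ndufa4l2 passed, with standard errors from 0.30 to 0.54, and whether isoforms of a subunit differed in response was not tested.

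In complex I, 6 of 36 members fell, and the median over the complex was -0.18. Among them were Ndufv1, which binds NADH and flavin (-0.36 ± 0.09, adjusted p = 0.0134), and the accessory subunits Ndufa3 (-0.37), Ndufs6 (-0.33), Ndufb8 (-0.44) and Ndufb9 (-0.41), with adjusted p from 0.0118 to 0.046. Ndufv1 was at 59.6 and 58.1 CPM in female dual libraries, 66.9 and 70.02 in female paternal, 67.2 and 74.02 in female maternal, and 74.3 and 76.8 in female control libraries. In males it was at 58.6 and 64.2 CPM in dual libraries, against 62.3 and 57.7 in control libraries. Its female dual libraries lay below the other 6 female libraries, while male dual and control libraries overlapped. Medians of the other complexes were -0.33 for II, -0.30 for III and -0.33 for IV, and the difference between complexes was not tested.

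**Figure D3:**
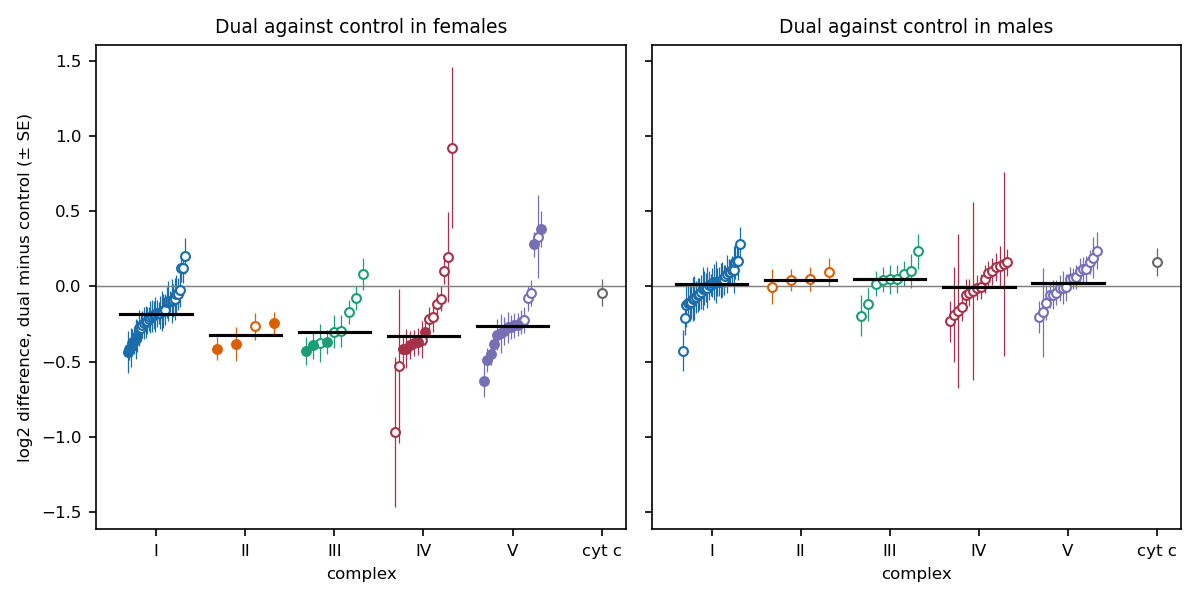
Log2 difference of each tested member, dual minus control, in females (left) and males (right) by complex; bars are SE of the edgeR fit and filled points passed at an adjusted p under 0.05, and black lines mark medians. In females 27 of 84 points fell and 2 rose, and in males 0 passed. With the TEC and sense-intronic share as a covariate 62 of the 84 members in females were positive. That fit can hardly tell the share apart from female dual exposure.

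Nuclear subunit genes are known targets of the factors NRF1 and GABP, so the promoter windows were searched for their motifs. RefSeq windows (GRCm38.p6), from 250 bases before to 50 after a transcription start, were at hand for 71 members (77 windows) among 32851 windows of all genes. Motifs were read on both strands. The NRF1 motif GCGCANGCG was found in 29.9% of member windows, against 6.25% of all windows. The GABP (ETS) motif CCGGAAG was in 22.1% against 8.86%, the YY1 motif AAGATGGCG in 9.09% against 1.40% and the Sp1 motif GGGCGG in 41.6% against 35.7%. Of the 27 members that fell in female dual cortex 9 had the NRF1 motif and 6 the GABP motif, of the 2 that rose 1 and 2, and of the 55 others 11 and 9, members without a window included. A match describes letters in the window and is not a measured site. Shown are 3 genes that fell and the 2 that rose, 5′ to 3′ on the gene's strand, with NRF1 matches (GCGCANGCG or its reverse complement CGCNTGCGC, which can overlap) and GABP matches (CCGGAAG or CTTCCGG) in capitals. The windows are Atp5g2 at chr15:102670998-102671297 (minus strand), Cox6a1 at chr5:115348909-115349208 (minus strand), Uqcrc1 at chr9:108936398-108936697 (plus strand), Atp5l at chr9:44920693-44920992 (minus strand) and Usmg5 at chr19:47090598-47090897 (minus strand).
Atp5g2: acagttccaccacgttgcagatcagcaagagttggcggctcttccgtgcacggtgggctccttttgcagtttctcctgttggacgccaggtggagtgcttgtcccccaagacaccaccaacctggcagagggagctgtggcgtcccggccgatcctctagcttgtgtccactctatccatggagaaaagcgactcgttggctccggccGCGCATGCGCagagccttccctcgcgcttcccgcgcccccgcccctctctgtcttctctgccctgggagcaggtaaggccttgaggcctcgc
Cox6a1: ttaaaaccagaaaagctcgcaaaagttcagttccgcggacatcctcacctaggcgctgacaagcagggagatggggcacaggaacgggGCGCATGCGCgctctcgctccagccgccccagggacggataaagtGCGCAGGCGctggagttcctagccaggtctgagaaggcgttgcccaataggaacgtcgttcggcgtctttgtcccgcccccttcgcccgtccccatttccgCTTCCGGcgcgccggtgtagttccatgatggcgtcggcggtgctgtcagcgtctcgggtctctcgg
Uqcrc1: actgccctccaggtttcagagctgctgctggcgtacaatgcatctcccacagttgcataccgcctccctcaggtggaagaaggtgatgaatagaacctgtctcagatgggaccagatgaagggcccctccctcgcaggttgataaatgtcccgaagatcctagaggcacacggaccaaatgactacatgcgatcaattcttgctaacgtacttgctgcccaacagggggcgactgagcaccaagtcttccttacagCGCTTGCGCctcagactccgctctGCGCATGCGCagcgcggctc
Atp5l: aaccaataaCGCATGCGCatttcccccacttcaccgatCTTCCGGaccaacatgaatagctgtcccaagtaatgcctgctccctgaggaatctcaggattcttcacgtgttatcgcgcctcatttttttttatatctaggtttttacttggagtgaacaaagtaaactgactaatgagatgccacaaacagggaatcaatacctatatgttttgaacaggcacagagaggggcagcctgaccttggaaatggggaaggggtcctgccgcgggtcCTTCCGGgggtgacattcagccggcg
Usmg5: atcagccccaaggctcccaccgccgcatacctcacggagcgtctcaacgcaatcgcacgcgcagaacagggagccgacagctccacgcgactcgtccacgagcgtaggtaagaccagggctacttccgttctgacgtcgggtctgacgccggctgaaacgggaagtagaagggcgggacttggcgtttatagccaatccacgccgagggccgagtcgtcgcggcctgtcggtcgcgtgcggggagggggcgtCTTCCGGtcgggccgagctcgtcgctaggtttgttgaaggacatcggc

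In the windows shown, the capitals in Atp5g2 and Uqcrc1 are NRF1 matches and those in Usmg5 a GABP match. In Cox6a1 the first 2 runs are NRF1 matches and the last a GABP match, and in Atp5l the first run is an NRF1 match and the other 2 are GABP matches. The windows of Atp5b and Atp5d, which fell with the lowest p, held none of the NRF1, GABP and YY1 motifs. The Sp1 motif was found for Atp5b.

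In male fetuses 0 of 84 members passed between dual exposure and control by edgeR's quasi-likelihood test, with 2 at an unadjusted p of 0.05 and 0 by DESeq2, where 0.0% of all genes passed. The median log2 fold change was 0.03, with 47 of 84 positive, and medians by complex ran from -0.01 for complex IV to 0.05 for complex III. Both male dual libraries lay below both male controls for 8 members (9.52%), against 19.1% of all genes and 20.3% of protein-coding genes. Summed complex V counts were 1942 and 2037 CPM in male dual libraries, against 1989 and 1868 in male control libraries, and overlapped; in females they were 1788 and 1730 CPM in dual libraries, against 2266 and 2143 in control libraries, without overlap.

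**Figure D4:**
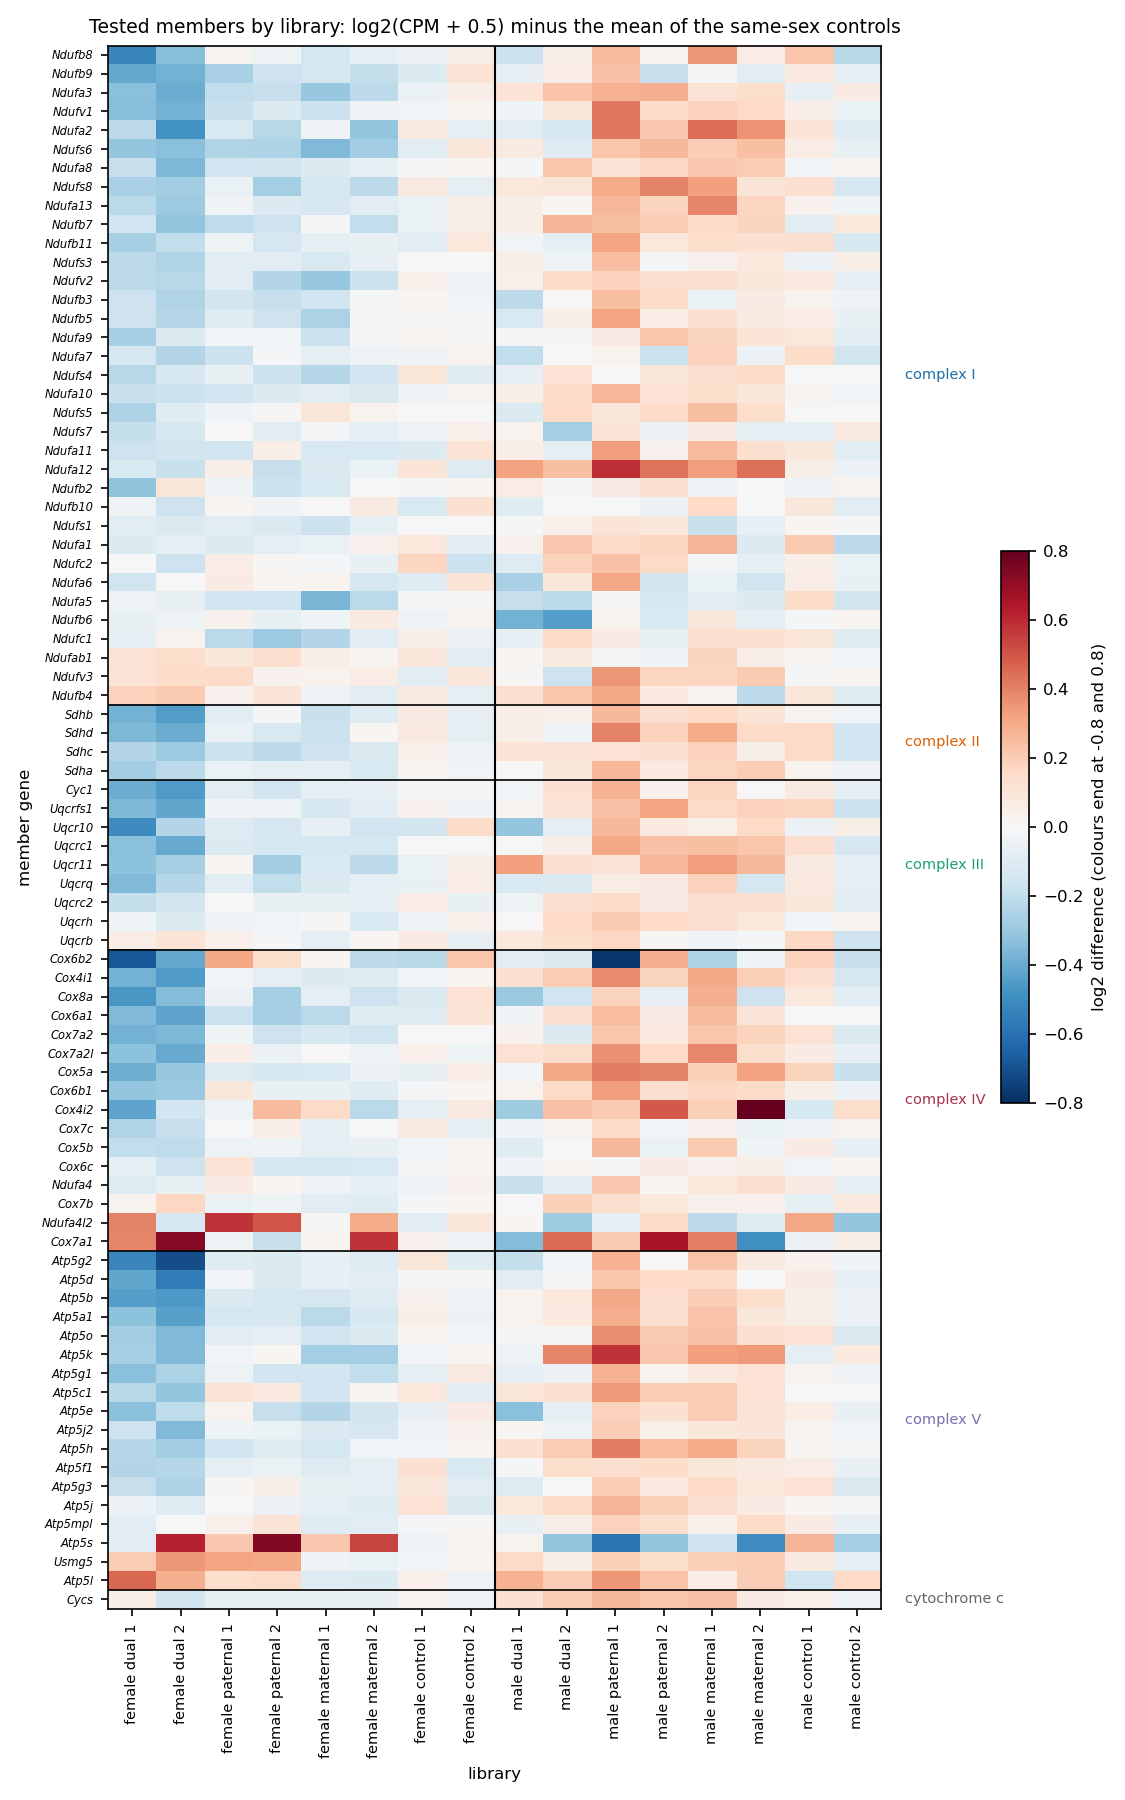
Tested members, with 1 left out (down, by complex) in the 16 libraries (across, females left, exposures in the order dual, paternal, maternal, control): log2(CPM + 0.5) minus the mean of the controls of the same sex, blue for lower and red for higher. The female dual columns are blue for most rows, and the male paternal and maternal columns are red for many.

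The dual effect differed between the sexes for 9 members, all with the more negative effect in females (edgeR's quasi-likelihood test of the female minus the male effect), where 3.5% of all genes passed, 0.733% lower and 2.76% higher. Among them were Cox4i1 with a log2 difference of -0.58 (-0.42 in females and 0.16 in males, adjusted p = 0.0221), Ndufa3 with -0.54 (-0.37 and 0.17, adjusted p = 0.0337), and Atp5b with -0.50 (-0.45 and 0.05, adjusted p = 0.0127). Also among them were Cox7a2l (-0.50), Sdhb (-0.46), Atp5d (-0.45), Atp5a1 (-0.43) and Atp5h (-0.42), with adjusted p from 0.0331 to 0.0493. All 9 had fallen in females and none had passed in males. The median of the dual sex difference was -0.22 over members and -0.06 over protein-coding genes. Of the latter, 1.04% passed lower and 0.70% higher. The control libraries of the sexes enter this difference, and they lay far apart: the summed member level was 5507 and 5398 CPM in female controls and 4918 and 4571 CPM in male controls. The same median of -0.22 arose for the maternal effect, and -0.24 for the paternal effect, where 0 members passed (24 and 32 at an unadjusted p of 0.05, 0 each by DESeq2) and 0.0% of all genes did. Those 3 differences share the control libraries. Over protein-coding genes the median was -0.03 for the maternal and -0.01 for the paternal difference. Without female control replicate 2 the paternal difference had 5 calls and the maternal difference 1. The dual difference had 0 calls without female dual replicate 2, male dual replicate 2 or male control replicate 2, 3 without female dual replicate 1 or female maternal replicate 2, 4 without male dual replicate 1 or female paternal replicate 2, 5 without female maternal replicate 1, and 18 without female control replicate 2.

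Against paternal exposure, dual exposure averaged over the sexes lowered 18 members and raised 0, where 8.81% of all genes passed, 2.16% lower and 6.65% higher. The 18 comprised 8 of complex V, 4 of complex IV, 3 of complex III, 2 of complex II and 1 of complex I, and 76 of 84 members were negative, with a median of -0.16. Of protein-coding genes 3.05% fell and 1.54% rose. Their median was -0.05, with 36.7% positive. Atp5d fell by 0.33 ± 0.06 (edgeR, Benjamini-Hochberg adjusted p = 0.0019), Atp5b by 0.25 ± 0.05 (adjusted p = 0.00445), Atp5g2 by 0.39 ± 0.08 (adjusted p = 0.00662) and Sdhb by 0.26 ± 0.06 (adjusted p = 0.00822). Atp5d was at 61.3, 55.5, 66.6 and 71.2 CPM in the dual libraries, females before males, against 80.9, 76.2, 82.9 and 79.1 in the paternal libraries, without overlap. The other 14 were Atp5c1, Atp5a1, Atp5e, Atp5o and Atp5g3, then Uqcrc1, Uqcrfs1 and Uqcr10, then Cox6b1, Cox7a2l, Cox4i1 and Cox7a2, and Ndufv1 and Sdhd, from -0.20 for Atp5a1 to -0.31 for Uqcr10. This count fell to 3 without male dual replicate 1 or male paternal replicate 1, 6 without female paternal replicate 1, 7 without female dual replicate 2 and 11 without female paternal replicate 2, and reached 28 without female control replicate 2.

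Against maternal exposure, dual exposure lowered 8 members and raised 1, where 5.76% of all genes passed, 1.34% lower and 4.42% higher. Among those that fell were Atp5g2 (-0.40 ± 0.08, edgeR adjusted p = 0.00749), Atp5b (-0.22 ± 0.05, adjusted p = 0.0129), Atp5d (-0.26 ± 0.06, adjusted p = 0.0139), Uqcrc1 (-0.22), Cox7a2 (-0.23), Cox7a2l (-0.24) and the complex I accessory subunit Ndufa2 (-0.35). Atp5l rose by 0.30 ± 0.09 (adjusted p = 0.0473). The median over members was -0.12, beside -0.04 over protein-coding genes, of which 1.89% fell and 0.853% rose. The count depended on single libraries: 0 remained without male dual replicate 1 and 1 without female dual replicate 2, while female control replicate 1 left out gave 16 calls and female control replicate 2 left out gave 23. It was 2 without male maternal replicate 1 or female maternal replicate 1, 3 without female maternal replicate 2, and 5 without male maternal replicate 2 or female dual replicate 1. Atp5b, Atp5d and Atp5g2 passed against all 3 other exposure groups, in comparisons that share the dual libraries.

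Dual exposure was below the sum of the single exposures for 5 members, where 4.21% of all genes passed, 0.724% lower and 3.49% higher. Of protein-coding genes 1.01% were lower and 0.613% higher. The median was -0.16 over members and -0.06 over protein-coding genes. Cox7a2l differed from additivity by -0.37 ± 0.09 on the log2 scale (edgeR adjusted p = 0.0282), Atp5d by -0.33 ± 0.08 (adjusted p = 0.0324), Atp5b by -0.27 ± 0.07 (adjusted p = 0.0345), Atp5c1 by -0.30 ± 0.08 (adjusted p = 0.0421) and Atp5g2 by -0.42 ± 0.11 (adjusted p = 0.0451). For Cox7a2l the female libraries held 74.3 and 70.3 CPM with dual, 96.5 and 90.0 with paternal, 93.3 and 90.5 with maternal exposure, and 95.8 and 90.7 in controls. The male libraries held 85.8 and 87.4 CPM with dual, 102 and 88.3 with paternal, 104 and 87.1 with maternal exposure, and 82.7 and 75.7 in controls. Female dual libraries alone were low in females, and male controls were the lowest of the males. The count of 5 became 0 without male control replicate 2, male paternal replicate 1, male maternal replicate 1, male dual replicate 1, female paternal replicate 1, female maternal replicate 2 or female dual replicate 2, 1 without female maternal replicate 1 and 2 without female paternal replicate 2. It became 14 without female control replicate 1, 10 without male control replicate 1, 9 without male dual replicate 2, and 8 without male paternal replicate 2 or female control replicate 2.

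The calls for the sex difference, for dual against the single exposures and for non-additivity also depended on which genes and covariates entered the edgeR fit. With protein-coding genes alone, 3 members passed for dual against paternal, and 0 for dual against maternal (28 at an unadjusted p of 0.05), for the dual sex difference (27) and for non-additivity (25). With the TEC and sense-intronic share as a covariate, 0 passed for dual against paternal (3 at an unadjusted p of 0.05), dual against maternal (5), the dual sex difference (2) and non-additivity (3). The covariate fit can hardly tell this share apart from female dual exposure, which enters each of these comparisons.

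Neither single exposure moved a member past the test. With paternal exposure over both sexes 0 of 84 passed by edgeR's quasi-likelihood test (7 at an unadjusted p of 0.05, 0 by DESeq2), where 0.0% of all genes passed. Of the members 67 were positive, at a median of 0.05, beside 53.2% positive and a median of 0.01 over protein-coding genes. Without female control replicate 1, 1 member passed, Atp5c1. Smallest p among positive members belonged to Usmg5 (0.24 ± 0.06), Atp5c1 (0.18 ± 0.06) and the complex I accessory subunit Ndufa12 (0.23 ± 0.07), with adjusted p from 0.388 to 0.455. Among negative ones it belonged to the complex I subunits Ndufc1 (-0.13 ± 0.08), Ndufa5 (-0.12 ± 0.08) and Ndufa7 (-0.09 ± 0.08). With maternal exposure 0 passed (2 at an unadjusted p of 0.05, 0 by DESeq2), where 0.0% of all genes passed. Its median over members was 0.02, beside 0.01 over protein-coding genes. Its smallest p belonged to Ndufa12 (0.15 ± 0.07), Cox7a2l (0.12 ± 0.06) and Ndufv3 (0.12 ± 0.07), the last an accessory subunit of the NADH-oxidising module, and to Ndufa5 (-0.20 ± 0.08), Ndufs1 (-0.12 ± 0.05), the large iron-sulfur subunit of complex I, and Ndufb9 (-0.11 ± 0.09).

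Within the sexes the members' medians for the single exposures had opposite signs. In males 76 of 84 members were positive with paternal exposure (median 0.16, 0 passed by edgeR, 30 at an unadjusted p of 0.05) and 71 with maternal exposure (median 0.13, 0 passed, 16 at an unadjusted p of 0.05), where 0.0% of all genes passed in each. Both male paternal libraries lay above both male controls for 49 members (58.3%), against 20.6% of all genes, and both male maternal libraries for 48 (57.1%), against 19.5%. Among protein-coding genes these shares were 25.8% and 24.1%. Of protein-coding genes in males, 54.4% were positive with paternal exposure (median 0.02) and 54.6% with maternal exposure (median 0.02). In females 19 members were positive with paternal exposure (median -0.07, 0 passed, 8 at an unadjusted p of 0.05) and 8 with maternal exposure (median -0.10, 0 passed, 7 at an unadjusted p of 0.05), again with 0.0% of all genes passing. Of protein-coding genes in females, 47.8% were positive with paternal exposure (median -0.01) and 45.0% with maternal exposure (median -0.02). Both exposures share the same 2 controls within a sex. DESeq2 called 0 members in these 4 comparisons except Ndufa12, which it called in males with paternal exposure. Ndufa12 was at 45.0 and 40.4 CPM in male paternal libraries, against 30.7 and 28.8 CPM in male control libraries, without overlap (edgeR 0.52 ± 0.11, adjusted p = 0.337).

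Member levels were also set beside the TEC and sense-intronic share of each male library. Male dual replicate 1 and male control replicate 2, with the 2 highest TEC and sense-intronic shares among males (0.511% and 0.534%), had the 2 lowest median member levels among males, -0.08 and -0.12 on the log2 scale relative to the mean of the 16 libraries. Male paternal replicate 1, with the lowest share (0.280%), had the highest median, 0.15. Male control replicate 1 came next to the highest shares (0.429%) and next to the lowest medians (-0.04), in the same order. The remaining male libraries, with shares from 0.363% to 0.381%, did not keep to that order. Male paternal replicate 2 (0.381%) was at 0.03 and male maternal replicate 1 (0.369%) at 0.07. Male dual replicate 2 (0.365%) was at -0.01 and male maternal replicate 2 (0.363%) at 0.02. The female dual libraries were at -0.10 and -0.11 and the female controls at 0.11 and 0.11. The part of this share in the results was not tested beyond its use as a covariate.

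**Figure D5:**
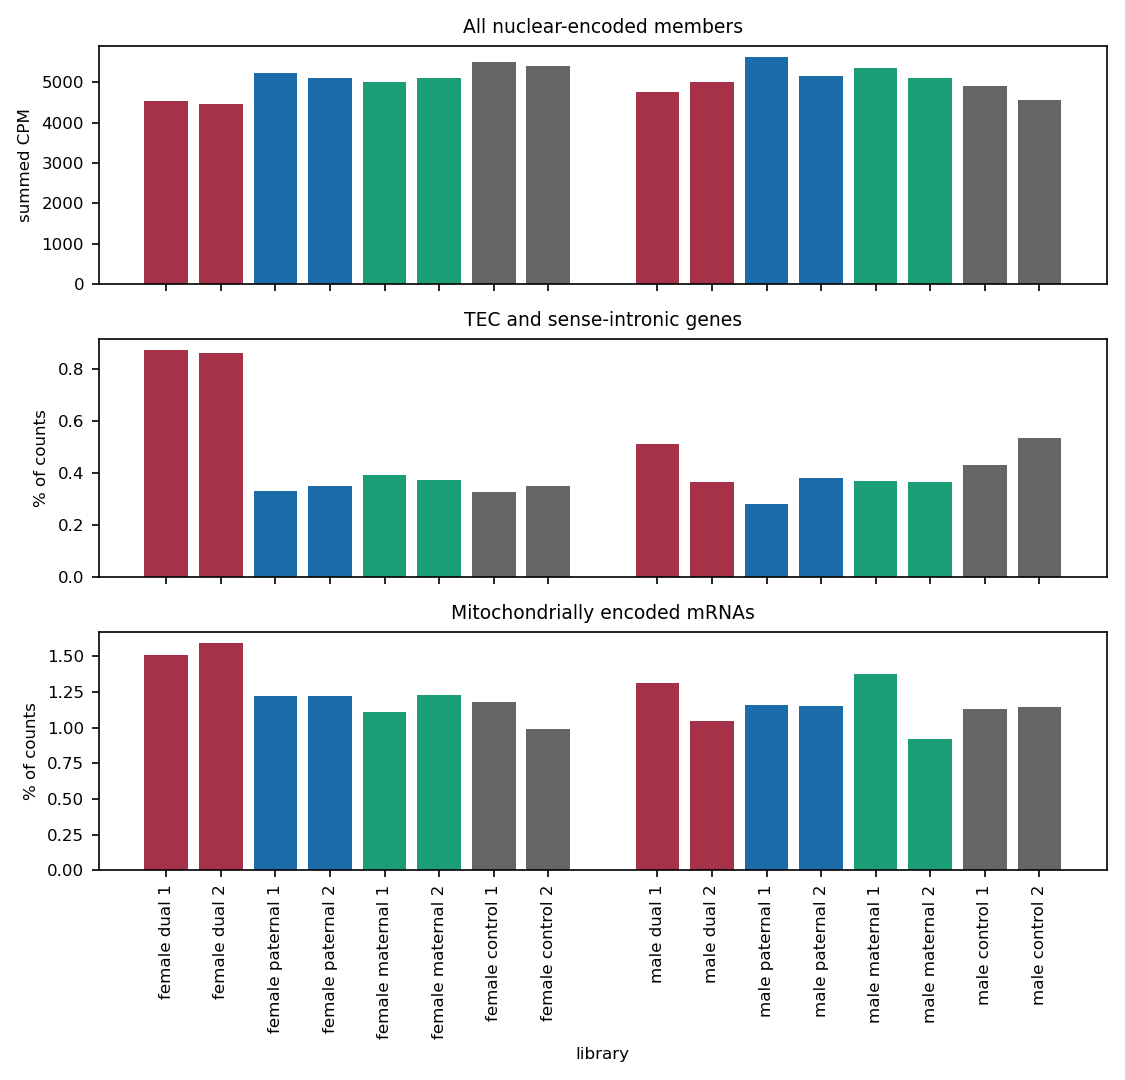
Per library, females left and exposures in the order dual, paternal, maternal, control: the summed CPM of all members, the share of counts on TEC and sense-intronic genes, and the share on mitochondrially encoded mRNAs. The 2 female dual libraries hold the lowest member sums (4547 and 4471 CPM), the highest TEC and sense-intronic shares (0.872% and 0.860%) and the highest mitochondrial mRNA shares (1.51% and 1.59%).

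Among the 13 subunits encoded by mitochondrial DNA 5 rose in female dual cortex (edgeR, adjusted p under 0.05) and 0 fell, where 9.34% of all genes rose and 5.64% fell, at a median log2 fold change of 0.49. They were the complex I subunits mt-Nd2 (0.93), mt-Nd3 (1.26), mt-Nd5 (0.49) and mt-Nd6 (1.17) and the complex III cytochrome b, mt-Cytb (0.48). Their summed level was 14002 and 14860 CPM in female dual libraries, against 11843 and 9437 in female control libraries, without overlap. In males it was 13531 and 12558 CPM in dual libraries, against 10775 and 11715 in control libraries, also without overlap. Male paternal libraries held 13207 and 11660 CPM and male maternal ones 13645 and 9207, and both overlapped the dual libraries. At a median of 0.20 in male dual against control, 0 of 13 passed by edgeR (1 at an unadjusted p of 0.05). These mRNAs have near-identical nuclear copies. Their calls come from the main edgeR fit alone and were not checked under the other settings tried for the members.

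Other genes of mitochondrial function were counted in female dual cortex by lists of known roles, where 5.64% of all genes and 8.02% of protein-coding genes fell. Of 16 genes of the TCA cycle and pyruvate dehydrogenase, 4 fell, among them the citrate synthase gene Cs (-0.23), Idh3b (-0.27) and the malate dehydrogenase gene Mdh2 (-0.29), with a list median of -0.16. Of 10 genes of metabolite exchange 5 fell, among them the phosphate carrier Slc25a3 (-0.24), the ADP/ATP carrier Slc25a5 (-0.32), the channel Vdac2 (-0.25) and the oxoglutarate carrier Slc25a11 (-0.47), with a median of -0.21. Assembly factors gave fewer calls. For complex I, 2 of 16 fell, Ndufaf3 (-0.39) and Ndufaf8 (-0.64). For complexes II and III 0 of 10 (0 at an unadjusted p of 0.05) and for complex IV 0 of 20 (4 at an unadjusted p of 0.05) passed by edgeR. For complex V and its inhibitor 1 of 6 fell, the inhibitor gene Atpif1 (-0.32). Of 10 cristae and supercomplex genes 1 fell, Immt (-0.22), and of 16 genes of mitochondrial transcription and DNA maintenance 1 rose, the single-strand DNA-binding protein gene Ssbp1 (0.42). Single calls in lists of this size lie near the shares of all genes that fell (5.64%) or rose (9.34%). None of these lists had a call between male dual and control libraries. These lists, too, were tested in the main edgeR fit alone.

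Markers of cell types were set beside the female dual result, where 5.64% of all genes fell and 9.34% rose. Lists of 3 to 6 markers are too short for a single call to stand out from these shares. The defining markers of cortical neurons were expressed in all libraries, and the 6 listed summed to 3705 and 3703 CPM in female dual libraries, against 4166 and 4094 in female control libraries, with 1 of 6 called, Tubb3 (-0.32). The 6 radial glia markers summed to 819 and 735 CPM in female dual libraries, against 907 and 780 in female control libraries, and overlapped. The 6 erythroid markers summed to 369 and 366 CPM in female dual libraries, against 523 and 645 in female control libraries, with Hbb-bs (-0.88) called. Endothelial markers summed to 273 and 239 CPM against 247 and 362 CPM, with Pecam1 (-0.55) called, and meningeal markers to 205 and 208 CPM against 75.7 and 379.9 CPM, with Ogn (1.69) called. Thalamic markers summed to 33.2 and 52.1 CPM in female dual libraries, against 42.7 and 94.5 in female control libraries, with Lhx9 (-0.82) called, and striated muscle markers stayed at or under 1.28 CPM in these 4 libraries. The 3 intermediate progenitor, 4 interneuron and 4 microglial markers had 0 calls by edgeR (1, 2 and 3 at an unadjusted p of 0.05). The part of cell composition in the subunit result was not tested.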

How the data were processed

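The authors deposited raw counts per gene ID for each of 16 libraries, made from total RNA with the TruSeq Standard Total RNA kit, per the labels. The submitters' processing notes name Trimmomatic, STAR and featureCounts with build GRCm39 (mm39). They give no versions, and how strand and multiply mapped reads were handled, and with which annotation, is not given in the sources used here. By ID, 52083 of 55359 genes were matched in GENCODE M21, on an older build, for symbols, gene classes and exon lengths. Promoter windows came from RefSeq (GRCm38.p6).

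Low counts were removed with edgeR's filterByExpr (minimum count 10, minimum total 15), leaving 21543 genes. One edgeR 4.0.16 quasi-likelihood model in R 4.3.3 covered all libraries, with TMM scaling, a mean for each of the 8 groups and 8 residual degrees of freedom, and glmQLFTest gave two-sided p-values. These were adjusted over all 21543 genes by Benjamini-Hochberg and called under 0.05. Counts at an unadjusted p of 0.05 are given without the share of all genes at that p. They therefore do not measure how far the members stand out. Comparisons over both sexes weigh females and males equally. A sex difference is the female effect less the male effect, and non-additivity is what remains of the dual effect after subtracting both single effects. Levels per kilobase use the union of exons. Male libraries hold fewer counts than female ones and have the wider counting error.

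The members, the lists of other mitochondrial genes and cell markers and the tests were chosen with earlier results of these data known. Named were members that passed (at most 10 per complex), the 3 of smallest p per direction for each exposure against control, the 2 highest and the lowest member per complex, isoform sets, complex II, Cyc1, Cycs and untested members. Some genes that enter the fits and counts are not reported here. Uqcrc2 and Atp5j2 were added after their values were seen. Alternatives tried were DESeq2 1.42.0, edgeR with size factors from DESeq2, all counted genes unfiltered, a replicate block, protein-coding genes alone, the TEC and sense-intronic share as covariate, the compared groups alone, the longest coding transcript as length, and each library left out in turn. They were tried for the members. Calls of the mitochondrially encoded genes, the other lists and the cell markers come from the main edgeR fit alone.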

Additional observations from a re-analysis of the deposited data

Results flagged for a closer look

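The effect of dual exposure differed between female and male fetuses for 9 members, 8 of them described here, by a direct test of that difference (edgeR's quasi-likelihood test, Benjamini-Hochberg adjusted p under 0.05). The values are log2 fold changes in females minus those in males. In ATP synthase they were -0.5048 for the catalytic subunit Atp5b, -0.448 for the stalk subunit Atp5d, -0.4333 for the alpha subunit Atp5a1 and -0.4182 for the peripheral-stalk subunit Atp5h. In complex IV they were -0.5759 for Cox4i1 and -0.4953 for Cox7a2l. In complex I it was -0.5431 for Ndufa3, and in complex II -0.4615 for Sdhb. All 8 had a negative fold change in females that passed, and in males all but Atp5d had a positive one that did not pass. The summed member level was 5507 and 5398 CPM in female controls and 4918 and 4571 CPM in male controls, and these libraries enter every sex difference. Sex also goes with depth and cannot be told apart from it.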

How the results depend on the processing

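With the TEC and sense-intronic share as a covariate 0 members passed in any comparison, and the median of all members was 0.0042 for paternal against control, 0.0983 for dual against control and 0.1876 for dual against control in females. Of 73 calls (a member in a comparison) 42 changed direction under it and 31 kept it without passing. The 42 values that changed direction had SE from 0.11 (Atp5b, dual against control) to 0.49 (Cox8a, dual against control in females). None passed, and the smallest unadjusted p was 0.081 (edgeR, Ndufb8 in females), so their signs are uncertain. The slope on the share comes from differences between replicates of a group, and the 2 female dual libraries barely differ in the share. The fit can hardly tell the share apart from female dual exposure, where both libraries lie far above all others. The cause was not tested. The log2 values that changed direction were, for dual against control, Atp5b 0.0072; for dual against paternal Ndufv1 0.1843, Sdhd 0.0880, Uqcrc1 0.0554, Uqcrfs1 0.0171, Cox4i1 0.1800, Cox6b1 0.1369, Cox7a2l 0.0342, Atp5a1 0.0473, Atp5b 0.0222, Atp5e 0.1676, Atp5g2 0.0715, Atp5g3 0.1812, Atp5o 0.0606; for dual against maternal Uqcrc1 0.0499, Cox7a2l 0.0078, Atp5b 0.0114. For dual against control in females they were Ndufb8 0.8372, Ndufb9 0.4345, Ndufv1 0.3418, Sdha 0.2538, Sdhd 0.2449, Cyc1 0.2835, Uqcrc1 0.1364, Uqcrfs1 0.1185, Cox4i1 0.2846, Cox6a1 0.0473, Cox6b1 0.3144, Cox7a2l 0.1082, Cox8a 0.3040, Atp5a1 0.0343, Atp5c1 0.0545, Atp5g1 0.1137, Atp5g2 0.1382, Atp5h 0.1082, Atp5l -0.0248, Atp5o 0.2282. For the female minus male dual effect they were Cox4i1 0.1766, Cox7a2l 0.0158, Atp5a1 0.0153, and for non-additivity Atp5b 0.0265, Atp5g2 0.0869. With protein-coding genes alone the calls were 0 for dual against control, 3 against paternal, 0 against maternal, 11 in females (median -0.1567), 0 for the sex difference and 0 for non-additivity. With the compared groups alone, a fit on fewer samples, they were 0 for dual against control, 18 against maternal, 4 in females and 0 for the sex difference, and non-additivity, which needs all groups, was not run. DESeq2 gave 5 and the fit without a filter 6 for dual against control. For non-additivity the counts were 3 with DESeq2's size factors in edgeR, 8 without a filter and 8 with the replicate block. Paternal exposure in males had 1 call (Ndufa12) by DESeq2, without a filter and with the compared groups alone. Replicate numbers did not pair the samples: correlations over 28 pairs of groups ran from -0.14 to 0.18, and the block gave 3, 20, 9, 30 and 9 calls for the other 5 comparisons with calls, against 3, 18, 9, 29 and 9. DESeq2 kept 72 of the 73 calls, its size factors 70, the block 69, no filter 62, protein-coding genes alone 14 and the covariate 0, and the compared groups alone 31 of 68. Leaving out 1 library kept 13 (female dual replicate 2) to 70 (male paternal replicate 2). Leaving out each library in turn gave 0 to 1 calls for paternal against control, 0 to 8 for dual against control, 3 to 28 against paternal, 0 to 23 against maternal, 5 to 31 in females, 0 to 5 for the paternal, 0 to 1 for the maternal and 0 to 18 for the dual sex difference, and 0 to 14 for non-additivity. Medians ran from 0.0174 to 0.0796 for paternal, -0.0162 to 0.0513 for maternal and -0.1428 to -0.0819 for dual exposure, -0.2677 to -0.2255 for dual in females and -0.0362 to 0.0850 for dual in males. In every fit that left out a library, Sdhb, Atp5b, Atp5d and Atp5g2 passed in females. Depth limits members of low count most, with totals of 26134287 to 35218456 counts in females and 15336566 to 19966696 in males.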
